A study of Rattus norvegicus with 9 samples.

Results

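The 10 genes described here encode immediate early transcription factors, taken from the table by a fixed list of identifiers with the names Fos, Fosb, Jun, Junb, Jund, Egr1, Atf3, Nr4a1, Ier2 and Myc. All 10 were present among the 17862 features of each kidney library. Kidney RNA was sequenced after removal of ribosomal RNA in 3 libraries from hypertensive animals that received Qingda granule (QDG), which is a Chinese herbal preparation, 3 from hypertensive animals without it (Model) and 3 from normal animals (WT), all at 6 weeks of age. The strain, the origin of the hypertension, the granule's dose and whether the 3 libraries of a group came from separate animals were not given in the sources used here, so p-values measure only the spread between these libraries, which may be technical. The labels name the rat as the organism, while the identifiers carry the Ensembl prefix of mouse genes, and which species was sequenced was not settled. The values are read or fragment numbers scaled to the feature's length and the library's total (FPKM, fragments per kilobase and M fragments), and implied library totals were 26.2 M to 31.4 M.

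Immediate early genes are transcribed within minutes of a stimulus from factors that already stand on their promoters, without new protein synthesis. The ERK kinases activate ternary complex factors that act with SRF, and RSK kinases, their substrates, act on SRF and CREB, so the pathway named in the title of the series lies directly upstream of several of these genes. Their transcripts are short-lived, and in kidney they are known to rise after ischaemia, growth factors and angiotensin II. Fos and Jun proteins pair to form AP-1, which carries the signal on to later genes. RNA was measured here, and the activity of ERK or RSK was not.

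Of the 10 genes, 8 averaged 1 FPKM or more over the 9 libraries, and 0 of these 8 passed the test across all features in each of the 3 comparisons (limma on log2(FPKM + 1), Benjamini-Hochberg adjusted p under 0.05). Of all tested features, 0% passed in QDG against Model, 2.47% in QDG against WT and 7.9% in Model against WT. One library, Model 2, stood apart: Fosb reached 5.53 FPKM and Atf3 9.49 FPKM, far above the other 8 libraries. Myc was lower in QDG than in WT in every library, at 1.68 ± 0.260 FPKM in QDG and 3.63 ± 0.248 FPKM in WT (SD, n = 3 each), and narrowly missed the threshold. QDG and WT did not overlap for 24.9% of all features. The mean of Nr4a1 in QDG was 1.90 times that in Model (3.02 times without Model 2) and 1.89 times that in WT, with overlapping values when all libraries were kept. Model 2 was set aside after its values had been seen. It was the highest Model library for Nr4a1, so leaving it out could only raise the ratio to Model. In whole tissue, fewer cells of a type and less RNA per cell cannot be told apart, here and below.

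**Figure D1:**
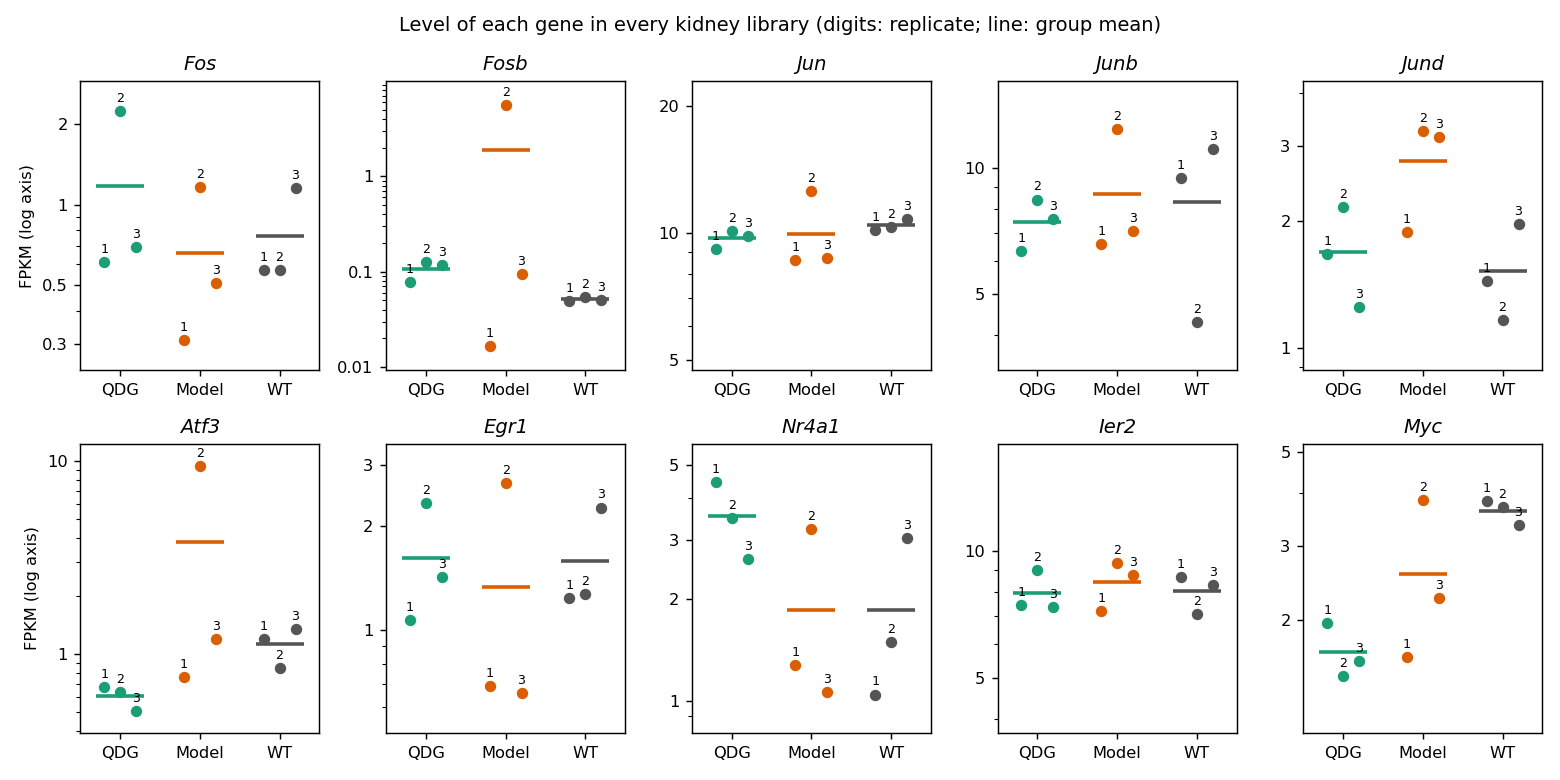
FPKM of each gene on a log axis in QDG, Model and WT kidneys, with 1 point per library, its replicate number above it and the group mean as a line. Fosb and Atf3 in Model 2 stand at 5.53 and 9.49 FPKM, and Myc in the 3 QDG libraries stands below the 3 WT libraries. QDG and WT did not overlap for 24.9% of all features.

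The genes differed widely in level. Jun was the most abundant at a mean of 10.02 FPKM over the 9 libraries, above 76.2% of all features, and Fosb was the scarcest by its median of 0.0780 FPKM. In QDG the order by mean was Jun, Ier2, Junb, Nr4a1, Jund, Myc, Egr1, Fos, Atf3 and Fosb, and the values of neighbours overlapped except between Jun and Ier2, Junb and Nr4a1, Nr4a1 and Jund, and Atf3 and Fosb. In Model every pair of neighbours overlapped, with Atf3 in the fourth and Fosb in the seventh place through Model 2. In WT the order was Jun, Junb, Ier2, Myc, Nr4a1, Egr1, Jund, Atf3, Fos and Fosb, and neighbours overlapped except between Ier2 and Myc, Myc and Nr4a1, and Fos and Fosb. Fos and Fosb had a mean under 1 FPKM and were tested only in a fit without that limit. Atf3 passed the limit only through Model 2, since its mean over the other 8 libraries was 0.896 FPKM.

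The Fos family members are the partners with which Jun proteins form strong AP-1 activators. Fos (ENSMUSG00000021250) stood at 0.607, 2.24 and 0.691 FPKM in QDG 1, 2 and 3, at 0.310, 1.16 and 0.507 FPKM in Model 1, 2 and 3, and at 0.568, 0.566 and 1.15 FPKM in WT 1, 2 and 3. QDG 2 was the highest library, Model 2 and WT 3 came next, and the 3 groups overlapped. These values rest on 21 (Model 1) to 154 (QDG 2) recovered reads. Without the limit on low values, the log2 change of Fos was 0.35 for QDG against Model (SE 0.28, limma adjusted p = 0.634), 0.25 for QDG against WT (SE 0.28, adjusted p = 0.682) and −0.10 for Model against WT (SE 0.28, adjusted p = 0.860). Without Model 2 it was 0.55 for QDG against Model (SE 0.28, limma adjusted p = 0.485) and −0.31 for Model against WT (SE 0.28, adjusted p = 0.548). Model 2 was the highest Model library for Fos, so leaving it out could only raise the first change and lower the second. All 3 WT libraries lay above the 2 Model libraries left, which was so for 18.2% of all features.

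Fosb (ENSMUSG00000003545), a Fos paralogue whose stable splice form accumulates under repeated stimulation, stood at 0.0780, 0.126 and 0.119 FPKM in QDG, at 0.0167, 5.53 and 0.0955 FPKM in Model, and at 0.0489, 0.0548 and 0.0510 FPKM in WT. Model 2 held 1036 reads of Fosb, while QDG held 14 to 23, Model 1 and 3 held 3 and 16, and WT held 8 to 10. The 3 reads of Model 1 give a 95% exact Poisson interval of 0.00344 to 0.0488 FPKM, which covers counting error only, and the 1036 reads of Model 2 one of 5.20 to 5.88 FPKM. The Model mean of 1.88 ± 3.16 FPKM (SD, n = 3) therefore describes none of its libraries. In Model against WT its log2 change was 0.88 with Model 2 (SE 0.57, limma adjusted p = 0.381) and 0.01 without it (SE 0.05, adjusted p = 0.958), both without the limit on low values. Of QDG against Model it was −0.81 with Model 2 (SE 0.57, limma adjusted p = 0.587) and 0.07 without it (SE 0.05, adjusted p = 0.587). All 3 QDG libraries lay above all 3 WT libraries, and QDG and WT did not overlap for 24.9% of all features. The mean was 0.108 ± 0.0258 FPKM in QDG and 0.0516 ± 0.00299 FPKM in WT, so the QDG mean was 2.09 times the WT mean. The log2(FPKM + 1) scale compresses this to 0.07, with SE 0.57 and a limma adjusted p of 0.961 over all libraries, and SE 0.04 and an adjusted p of 0.381 without Model 2. On recovered reads with voom, without the limit, the log2 change was 0.98 (SE 1.95, limma adjusted p = 0.830), again with Model 2 in the estimate of the spread.

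The Jun family members were steadier. Jun (ENSMUSG00000052684), the AP-1 subunit that the JNK kinases phosphorylate, stood at 9.15, 10.1 and 9.83 FPKM in QDG, at 8.61, 12.5 and 8.71 FPKM in Model, and at 10.2, 10.3 and 10.8 FPKM in WT. Every QDG library was just below every WT library, and QDG and WT did not overlap for 24.9% of all features. The group means of 9.69 ± 0.484 FPKM in QDG and 10.4 ± 0.314 FPKM in WT differ by a log2 of −0.09 with a 95% interval of −0.39 to 0.20 (limma adjusted p = 0.722). Junb (ENSMUSG00000052837), which can restrain Jun, stood at 6.34, 8.40 and 7.54 FPKM in QDG, at 6.60, 12.4 and 7.08 FPKM in Model, and at 9.45, 4.30 and 11.1 FPKM in WT. WT 2 was the lowest of the 9 and Model 2 the highest, so the spread within WT and within Model exceeded every difference between groups (limma log2 changes between −0.16 and 0.10, adjusted p between 0.834 and 0.931).

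Jund (ENSMUSG00000071076), the Jun paralogue that many tissues express without stimulation, stood at 1.67, 2.15 and 1.25 FPKM in QDG, at 1.88, 3.26 and 3.15 FPKM in Model, and at 1.44, 1.16 and 1.97 FPKM in WT. Model 2 and Model 3 were above all 6 other-group libraries, and Model 1 lay among them. The log2 change was −0.48 for QDG against Model (SE 0.19, 95% interval −0.89 to −0.06, limma adjusted p = 0.317) and 0.57 for Model against WT (SE 0.19, 95% interval 0.15 to 0.98, limma adjusted p = 0.0856). Jund has a recovered length of 1668 bases. The median log2 change of the 2721 tested features under 2000 bases was −0.20 for QDG against Model and 0.20 for Model against WT, and its part in the result was not tested. With each library's trend on length removed the log2 changes were −0.31 (adjusted p = 0.569) and 0.38 (adjusted p = 0.220).

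Atf3 (ENSMUSG00000026628), a stress-induced member of the ATF/CREB family that pairs with Jun proteins and often represses, stood at 0.679, 0.634 and 0.508 FPKM in QDG, at 0.758, 9.49 and 1.19 FPKM in Model, and at 1.20, 0.847 and 1.35 FPKM in WT. All 3 QDG libraries lay below all 3 of Model and all 3 of WT. Groups did not overlap for 23.2% of all features in QDG against Model and for 24.9% in QDG against WT. The QDG mean of 0.607 ± 0.0884 FPKM was 0.536 times the WT mean of 1.13 ± 0.257 FPKM (SD, n = 3 each). The log2 change was −1.10 for QDG against Model (SE 0.52, limma adjusted p = 0.378) and −0.40 for QDG against WT (SE 0.52, limma adjusted p = 0.693), where the SE is set by Model 2 through the shared estimate of the spread. Without Model 2 it was −0.29 for QDG against Model (SE 0.15, limma adjusted p = 0.432) and −0.40 for QDG against WT (SE 0.13, adjusted p = 0.125). For Model against WT it was 0.69 with Model 2 (SE 0.52, limma adjusted p = 0.407) and −0.11 without it (SE 0.15, adjusted p = 0.660). Model 2 held the highest Atf3 value, so leaving it out could only raise QDG against Model and lower Model against WT.

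Model 2 gave the highest of the 9 values for 8 of the 10 genes (Fosb, Jun, Junb, Jund, Atf3, Egr1, Ier2 and Myc) and one of the 3 highest for all 10. Over all 17862 features it was the highest library for 9.999% and among the 3 highest for 31.98%. For Fosb, Model 2 was 43.9 times as high as the next library, QDG 2, and for Atf3 it was 7.05 times as high as the next, WT 3. Among all features, 0 had a larger ratio of Model 2 to the highest of the other 8 than Fosb and 1, Fosb itself, had a larger one than Atf3. A ratio of 2 or more was reached by 45 features (0.252%) and of 5 or more by 2 features, these same genes. The other 6 genes with their highest value in Model 2 exceeded the next library by a factor of 1.00 (Myc) to 1.17 (Jun). The ratios were looked up after the values of Model 2 had been seen and describe 1 library.

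**Figure D2:**
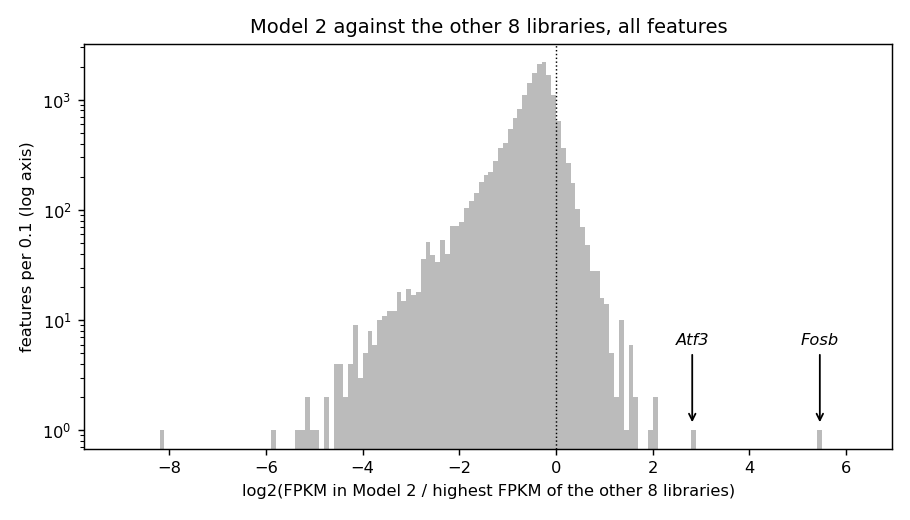
Number of features on a log axis by the log2 ratio of FPKM in Model 2 to the highest FPKM among the other 8 libraries, over all 17862 features. Fosb, at 43.9 times, and Atf3, at 7.05 times, lie to the right of every other feature.

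**Figure D3:**
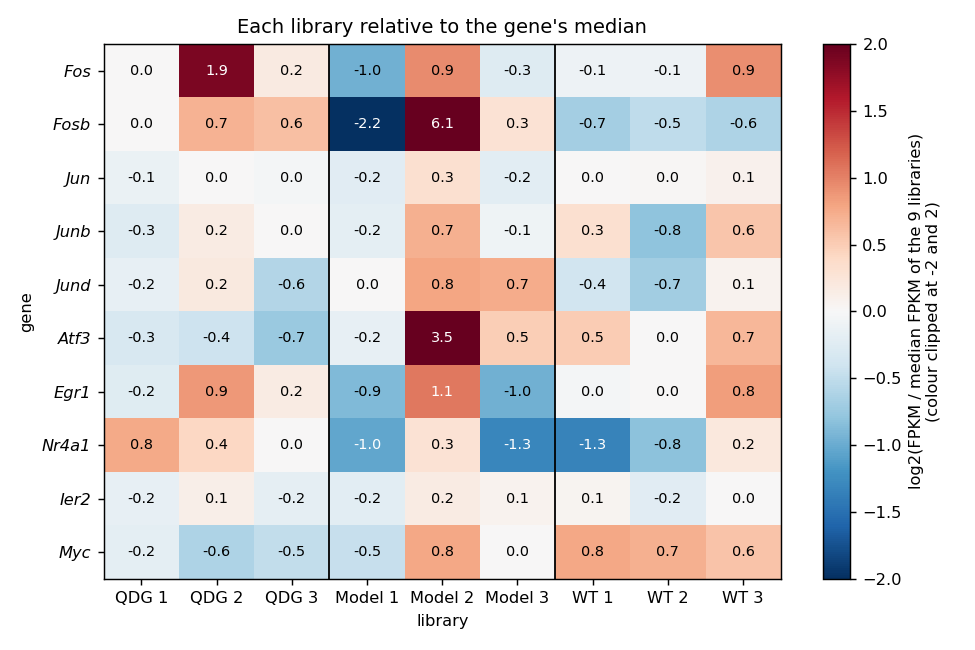
Log2 of FPKM over the gene's median across the 9 libraries, with genes down and libraries across, QDG to the left, Model in the middle and WT to the right. The Model 2 column is positive for all 10 genes, with 6.15 for Fosb and 3.49 for Atf3, and Myc is negative in every QDG library and positive in every WT library.

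The other 2 Model libraries looked different from Model 2. In Model 1 and Model 3, Fos, Jun, Egr1 and Myc were below all 3 WT libraries, which was so for 18.2% of all features, and none of the 10 genes was above all 3, against 19.7% of all features. Model 2 therefore decided the direction or the size of several differences between Model and WT. Without it, the median log2 change of the 8 tested genes was −0.20 in place of 0.02, and Jund was the only one of the 8 with a positive change. Model 2 was singled out for its high values and was the highest Model library for each of the 10 genes. Leaving it out could therefore only lower Model against WT and raise QDG against Model, and the shifts are not separate evidence on these genes.

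**Figure D4:**
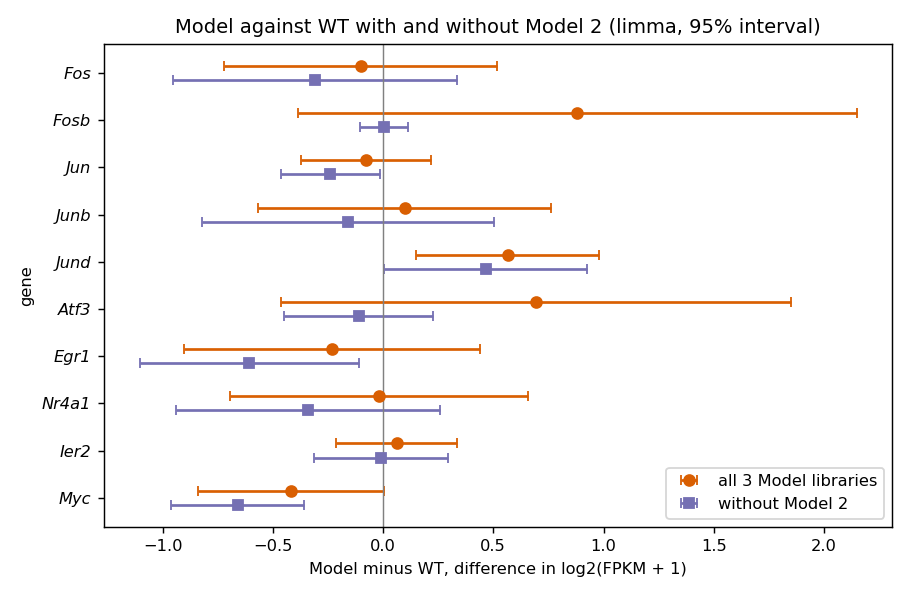
Log2 change of Model against WT with its 95% interval from limma, with all 3 Model libraries (circles) and without Model 2 (squares). Fosb moves to 0.01 and Atf3 to −0.11 without Model 2, the intervals of Jun, Egr1 and Myc then lie below 0 and that of Jund lies above 0. Model 2 was the highest Model library for every gene, so its removal could only lower each change.

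Egr1 (ENSMUSG00000038418), a zinc-finger factor whose promoter carries several SRF sites, stood at 1.07, 2.33 and 1.43 FPKM in QDG, at 0.690, 2.65 and 0.657 FPKM in Model, and at 1.23, 1.27 and 2.26 FPKM in WT. QDG 2, Model 2 and WT 3 were high within their groups, as for Fos, and the groups overlapped. The log2 change was 0.24 for QDG against Model (SE 0.30, limma adjusted p = 0.749), 0.01 for QDG against WT (SE 0.30, adjusted p = 0.992) and −0.23 for Model against WT (SE 0.30, adjusted p = 0.650). Without Model 2 the changes were 0.61 for QDG against Model (SE 0.22, limma adjusted p = 0.360) and −0.61 for Model against WT (SE 0.22, adjusted p = 0.112). Model 2 held the highest Egr1 value, so leaving it out could only raise the first change and lower the second. Egr1 was also the gene whose pattern was most like that of Fos. The root mean square difference between their centred log2(FPKM + 1) profiles over the 9 libraries was 0.213, and 0 of the 12179 tested features outside the 10 genes were closer to Fos. The nearest of those features were ENSMUSG00000103670 at 0.215 and ENSMUSG00000020423 at 0.216, beside a deviation of Fos from its own mean of 0.372. Ier2 stood at 0.311, with 240 features closer, and Jun at 0.318, with 336 closer, while Fosb stood at 0.799 and Atf3 at 0.815. A feature with the same value in every library would stand at 0.372, so the values of the steady genes Ier2 and Jun do not show a shared pattern.

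Nr4a1 (ENSMUSG00000023034), an orphan nuclear receptor induced by calcium and cyclic AMP signals, stood at 4.45, 3.50 and 2.64 FPKM in QDG, at 1.28, 3.23 and 1.06 FPKM in Model, and at 1.04, 1.49 and 3.05 FPKM in WT. All QDG libraries were above Model 1, Model 3, WT 1 and WT 2, and QDG 3 was below Model 2 and WT 3. The means were 3.53 ± 0.908 FPKM in QDG, 1.86 ± 1.19 FPKM in Model and 1.86 ± 1.05 FPKM in WT (SD, n = 3 each). The log2 change was 0.72 for QDG against Model (SE 0.30, 95% interval 0.04 to 1.399, limma adjusted p = 0.339) and 0.70 for QDG against WT (SE 0.30, 95% interval 0.03 to 1.38, adjusted p = 0.220). Neither passed. Without Model 2, the log2 change was 1.04 for QDG against Model (SE 0.27, 95% interval 0.44 to 1.64, limma adjusted p = 0.360) and 0.70 for QDG against WT (SE 0.24, adjusted p = 0.130). Model 2 was the highest Model library for Nr4a1, so leaving it out could only raise QDG against Model and lower Model against WT. Model against WT gave −0.02 (SE 0.30, 95% interval −0.70 to 0.66, limma adjusted p = 0.975) with all libraries and −0.34 (SE 0.27, adjusted p = 0.433) without Model 2.

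Ier2 (ENSMUSG00000053560), a small nuclear protein whose transcript rises early after growth stimulation, varied least among the 10 genes. It stood at 7.45, 8.98 and 7.36 FPKM in QDG, at 7.19, 9.35 and 8.74 FPKM in Model, and at 8.65, 7.09 and 8.31 FPKM in WT. The highest library was 1.32 times the lowest, and the groups overlapped throughout. The 95% intervals of the log2 change were −0.35 to 0.20 for QDG against Model, −0.29 to 0.26 for QDG against WT and −0.21 to 0.34 for Model against WT. Ier2 has a recovered length of 1522 bases. With each library's trend on length removed, its log2 change went from −0.08 to 0.11 for QDG against Model and from 0.06 to −0.14 for Model against WT.

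Myc (ENSMUSG00000022346), the growth-promoting factor that binds DNA with Max, stood at 1.97, 1.47 and 1.60 FPKM in QDG, at 1.64, 3.84 and 2.25 FPKM in Model, and at 3.83, 3.69 and 3.35 FPKM in WT. Every QDG library was below every WT library, and 2 of the 3 Model libraries lay below WT while Model 2 lay above it. QDG and WT did not overlap for 24.9% of all features. The Model mean was 2.58 ± 1.14 FPKM (SD, n = 3). QDG had 117 to 154 recovered reads a library and WT had 264 to 286. The log2 change of QDG against WT was −0.79 (SE 0.19, 95% interval −1.21 to −0.37), with a limma adjusted p of 0.0569 and an unadjusted p of 0.00183, the 392nd smallest of 12187. Its limma adjusted p was 0.0102 to 0.190 over 20 alternatives, of which 7 put it under 0.05, among them the fit without Model 2 (0.0102) and the fit to QDG and WT alone (0.0120). Both of these keep the log2 change at −0.79 and take Model 2 out of the estimate of the spread. Of the 7, those without the limit on low values were chosen after seeing the data. With any QDG or WT library left out, the adjusted p was 0.0595 (without WT 3) to 0.190 (without QDG 2), and none of these fits passed. For QDG against Model the log2 change was −0.37 (SE 0.19, limma adjusted p = 0.405) with all libraries and −0.13 (SE 0.13, adjusted p = 0.687) without Model 2. For Model against WT it was −0.42 (SE 0.19, limma adjusted p = 0.182) with all libraries and −0.66 (SE 0.13, adjusted p = 0.0228) without Model 2, where Myc was the 1 gene of the 8 to pass. Model 2 held the highest Myc value of all libraries, so leaving it out could only lower the Model mean.

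**Figure D5:**
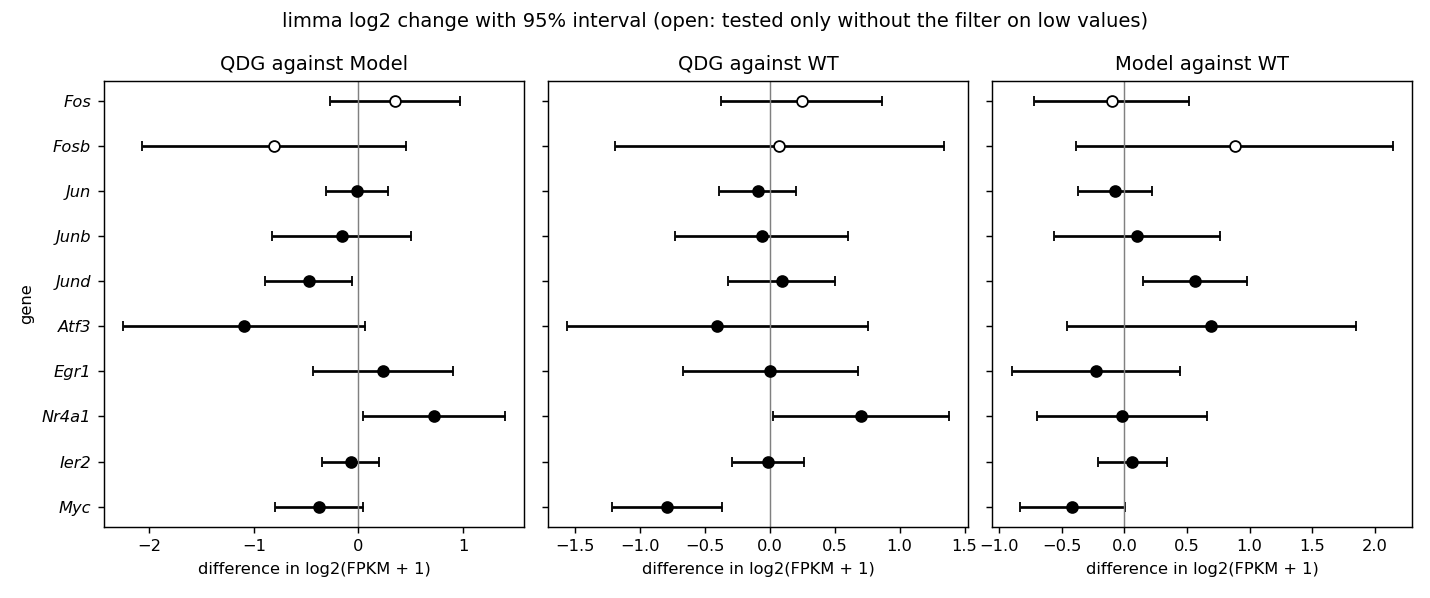
Difference in log2(FPKM + 1) with its 95% interval from limma for QDG against Model, QDG against WT and Model against WT. Filled points come from the fit to features that averaged 1 FPKM or more and open points from the fit without that limit. Myc in QDG against WT lies farthest from 0 relative to its interval, and the intervals of Fosb and Atf3 are the widest.

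The counts of called genes are given beside those of all features. In QDG against Model, 0 of 8 were called where 0% of all tested features were, and 2 of 8 (Jund, lower, and Nr4a1, higher) had an unadjusted p under 0.05, against 13.9%. In QDG against WT, 0 of 8 were called, against 2.47%, and 2 of 8 (Myc, lower, and Nr4a1, higher) had an unadjusted p under 0.05, against 21.3%. In Model against WT, 0 of 8 were called, against 7.9%, and 1 of 8 (Jund, higher) had an unadjusted p under 0.05, against 28%. Without Model 2 these counts changed. That library was singled out after its values had been seen. It was the highest Model library for every gene, so leaving it out could only lower the Model mean. In Model against WT, 1 of 8 (Myc) was then called, against 8.87%, and 4 of 8 (Jun, Egr1 and Myc, lower, and Jund, higher) had an unadjusted p under 0.05, against 28.4%. In QDG against WT without Model 2, 1 of 8 (Myc) was called, against 4.23%, and 3 of 8 (Atf3 and Myc, lower, and Nr4a1, higher) had an unadjusted p under 0.05, against 21.9%. Atf3 is among the 8 only through Model 2, because these fits kept the features chosen over all libraries, so its place in this count carries no weight. In QDG against Model without Model 2, 0 of 8 were called, against 0%, and 2 of 8 (Egr1 and Nr4a1, both higher) had an unadjusted p under 0.05, against 13%. Groups did not overlap for 1 of 10 genes in QDG against Model (Atf3), for 4 of 10 in QDG against WT (Fosb higher, Jun, Atf3 and Myc lower) and for 0 of 10 in Model against WT, beside 23.2%, 24.9% and 24.7% of all features. The median log2 change of the 8 was −0.12, −0.04 and 0.02 in these comparisons, and that of all tested features was −0.02, −0.0012 and 0.02. The comparisons share libraries and are not independent of each other.

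Promoter sequences were at hand from RefSeq for the rat assembly GRCr8, and 6 of the 10 genes matched by symbol. Fos, Jun, Atf3 and Myc were not matched. The 250 bases before the annotated start were searched on both strands for the cyclic AMP response element TGACGTCA, its variant TGCGTCA, the AP-1 site TGANTCA and the CArG box, which SRF binds. The element TGACGTCA stood once each in Jund and Ier2 and in 1.59% of the 33469 rat promoters. The variant stood 4 times in Nr4a1 and in 1.66% of promoters. The CArG box stood 2 times in Egr1 and in 1.497% of promoters, the AP-1 site in 0 of the 6 and in 6.34% of promoters, and no match overlapped another. Fosb and Junb held none of the 4. The sequences below are those of Ier2, Jund and Nr4a1, with the matched elements in capitals. Above, Ier2 was described as steady, Jund as higher in 2 Model libraries and Nr4a1 as highest in QDG by its mean. Egr1 also matched an element, and its sequence is not shown here. Ier2 is from chr19:40399123-40399372 on the plus strand, Jund from chr16:18769772-18770021 on the minus strand and Nr4a1 from chr7:134259888-134260137 on the plus strand. A match is a description of the letters and does not show that a factor binds there.
Ier2: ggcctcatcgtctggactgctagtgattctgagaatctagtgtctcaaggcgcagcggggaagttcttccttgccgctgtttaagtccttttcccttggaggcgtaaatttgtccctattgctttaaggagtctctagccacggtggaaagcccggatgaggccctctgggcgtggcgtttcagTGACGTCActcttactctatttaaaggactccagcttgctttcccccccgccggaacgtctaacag
Jund: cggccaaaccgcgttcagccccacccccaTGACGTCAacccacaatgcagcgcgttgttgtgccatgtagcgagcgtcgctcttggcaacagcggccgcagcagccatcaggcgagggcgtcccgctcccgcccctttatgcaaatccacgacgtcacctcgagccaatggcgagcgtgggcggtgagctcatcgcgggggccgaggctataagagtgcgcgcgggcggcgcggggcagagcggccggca
Nr4a1: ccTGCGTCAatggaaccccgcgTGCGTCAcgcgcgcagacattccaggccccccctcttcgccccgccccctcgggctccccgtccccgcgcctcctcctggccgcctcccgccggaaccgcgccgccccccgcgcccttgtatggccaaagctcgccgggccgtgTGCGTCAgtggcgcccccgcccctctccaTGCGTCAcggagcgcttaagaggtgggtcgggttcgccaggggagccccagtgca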

How the data were processed

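RNA from 9 kidney samples, 3 a group by their titles, was sequenced after depletion of ribosomal RNA, per the labels' protocols. Each file deposited by the authors holds a value per feature with no unit named. They were taken as FPKM, because these deposited values move in steps that give whole reads (within 0.05 read) in every sample for 17850 of 17862 features. Limma is named in the submitters' processing notes, and aligner, strand setting, genome build and annotation were not given in the sources used here. All 10 genes carry mouse Ensembl identifiers, and their names come from the list that chose them. These members, the lists and the alternatives were chosen with earlier results of these data known. The 5 pathway lists and the kidney cell markers are written in symbols, which no table used here pairs with these identifiers, so neither the lists nor the labelled tissue were checked.

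The 12187 features averaging 1 FPKM or more were fitted as log2(FPKM + 1), which understates changes of low values, in 1 limma model with an intensity trend (limma 3.58.1, R 4.3.3) over all 9 libraries, and two-sided p-values were adjusted over all features by the Benjamini-Hochberg method. All 10 genes are named whatever their values, and the features most like Fos by root mean square difference are given as 2 identifiers. Alternatives were another pseudocount or limit, other scalings, fits to 2 groups, voom on recovered reads scaled by trimmed means of M values, removal of length trends, a replicate block and each library left out.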

Additional observations from a re-analysis of the deposited data

How the results depend on the processing

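In the main fit, on log2(FPKM + 1) over all 9 libraries, 0 of the tested genes were called in each comparison. Of all tested features, 0% were called in QDG against Model, 2.47% in QDG against WT and 7.9% in Model against WT. In QDG against WT, 1 gene, Myc, was called after quantile normalization, after removal of length trends, with only the 2 groups fitted, with voom on recovered reads without a limit on low values, and without Model 2 and that limit. In this order, 4.23%, 4.34%, 3.99%, 2.01% and 2.53% of all tested features were called in these fits. With 1 library left out the count was 0 to 1 in QDG against WT, 0 to 1 in Model against WT, where Myc passed without Model 2, and 0 in QDG against Model. In QDG against WT, Myc passed without Model 1, where 2.27% of all tested features were called, and without Model 2, where 4.23% were. In Model against WT without Model 2, 8.87% were called. Without both Model 2 and the limit the count was 1 in Model against WT, beside 4.92% of all tested features. The last 2 kinds of fit without a limit were chosen after seeing the data. Of all changes in direction, none was of a called gene. In Model against WT the log2 change of Junb was −0.035 and of Ier2 −0.14 without length trends, of Nr4a1 0.0060 after quantile normalization, and of Junb −0.16, Atf3 −0.11 and Ier2 −0.0091 without Model 2 and the limit. With 1 library left out it was −0.24 to 0.0086 for Jun, −0.26 to 0.33 for Junb, −0.11 to 1.18 for Atf3, −0.34 to 0.26 for Nr4a1 and −0.014 to 0.16 for Ier2. In QDG against Model the log2 change of Jun was 0.020 after quantile normalization, 0.017 with voom and 0.043 without length trends, of Ier2 0.11 without length trends, and of Fosb 0.069, Jun 0.15 and Junb 0.097 without Model 2 and the limit. With 1 library left out it was −0.10 to 0.15 for Jun and −0.31 to 0.097 for Junb. In QDG against WT that of Egr1 was −0.0082 after quantile normalization, −0.025 with voom, −0.031 with voom without a limit and −0.0065 without length trends. With 1 library left out it was −0.42 to 0.17 for Junb, −0.030 to 0.21 for Jund, −0.18 to 0.18 for Egr1 and −0.097 to 0.036 for Ier2. The cause of these changes was not tested. The titles give the groups the same replicate numbers, but same-numbered libraries did not deviate together (correlations from −0.33 for Model 1 and WT 1 to 0.14 for QDG 2 and Model 2). The numbers thus gave no sign of a pairing, which so few libraries a group cannot exclude. A replicate block gave 0 called genes in each comparison, with a limma adjusted p of 0.0965 for Myc in QDG against WT. It called 0% of all tested features in QDG against Model, 1.26% in QDG against WT and 4.37% in Model against WT. A limit of 5 FPKM left 3 genes. TPM in place of FPKM moved no ratio of group means by more than the spread between libraries, but turned the log2 ratio of Jun to 0.040 (−0.038 in FPKM) and of Ier2 to 0.0078 (−0.088) in QDG against Model, and of Ier2 to 0.013 (−0.016) in QDG against WT. Outside Model 2, Fosb rests on 3 to 23 reads a library.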
